A study of Homo sapiens with 4 samples.

Results

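The 10 genes described here encode the machinery through which microRNAs are made and act: the Argonautes AGO1, AGO2, AGO3 and AGO4, the TNRC6 scaffolds TNRC6A, TNRC6B and TNRC6C, and the processing factors DROSHA, DGCR8 and DICER1. They were chosen by name, with earlier results of these data known. Each had 1 row with a single gene symbol among the 18417 genes so represented on the array, and all 10 were among the 14147 genes bright enough to be tested. The samples were 4 cultures of HepG2, an established hepatocellular carcinoma line with hepatocyte-like expression. In each of 2 independent experiments, 1 culture was transfected with anti-miR-191 and 1 with a negative control oligonucleotide (anti-miR-NC), both with a lipid reagent. All groups were therefore transfected, and no untransfected culture was analysed here. The sources used here do not give the dose or the time after transfection.

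In the nucleus, DROSHA and its RNA-binding partner DGCR8 cut hairpins out of primary transcripts, and DICER1 trims the exported hairpin to a short duplex in the cytoplasm. An Argonaute keeps 1 strand as a guide and pairs its seed with target messages, and TNRC6 proteins join the Argonaute to the deadenylases that shorten those messages. An anti-miR is an antisense oligonucleotide that pairs with a mature microRNA and occupies it inside Argonaute, without changing the gene that encodes it.

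The microRNA addressed by the treatment is shown because its seed is the part that an Argonaute presents to targets. The mature sequences are from RefSeq (GRCh38.p14), at chr3:49020672-49020694 for the 5p arm and chr3:49020631-49020652 for the 3p arm, both on the minus strand. Capitals mark the seed, bases 2 to 8.
hsa-miR-191-5p: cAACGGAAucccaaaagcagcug
hsa-miR-191-3p: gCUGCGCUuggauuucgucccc
Among the 2370 mature human microRNA names in that table, 0 others carried the 7-base seed of the 5p arm, and 0 others that of the 3p arm.

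Values are RMA intensities on the log2 scale, and a change is anti-miR-191 minus control on that scale. "Rose" and "fell" are used where limma's paired fit, in which the experiment is a block, gave an adjusted p under 0.05 over all genes tested. The unpaired fit compares the groups alone. With 2 arrays per group, these p-values rest on a spread estimated from few arrays and moderated across genes. Array medians over all rows lay between 4.37 and 4.43. Medians over the genes tested moved with the group, at 5.72 and 5.74 for anti-miR-191 and 5.57 and 5.62 for controls. So did the spread of values, with interquartile ranges of 3.38 and 3.43 for anti-miR-191 and 3.18 and 3.24 for controls. The precursor MIR191 read 5.22 and 5.14 after anti-miR-191 and 4.97 and 4.75 in controls in experiments 1 and 2 (change 0.32 ± 0.15, limma adjusted p = 0.201), which does not measure occupancy of the mature microRNA. As a check of the cell line, 8 of 8 hepatocyte markers on the array were above the background level defined below, with control means from 5.21 (FGB) to 11.6 (APOA1). Their summed level was 78.7 and 80.4 in controls and 77.9 and 74.2 after anti-miR-191. Of 20 markers of other cell types, 11 were above that level, with control means from 2.62 (PTPRC) to 9.24 (LYZ). Their summed level was 92.2 and 91.5 in controls and 91.4 and 91.5 after anti-miR-191. The part of these shifts in the results was not tested.

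AGO2, AGO3, DGCR8 and TNRC6A rose after anti-miR-191, by between 1.48-fold and 1.83-fold, and 0 fell. AGO1, AGO4 and TNRC6C were higher on both anti-miR-191 arrays than on both controls but missed the threshold, and with the 4 risen genes this made 7 of 10 separated in that direction, beside 29.4% of all genes tested. AGO4, counted among the 7, was not above background in either group. DROSHA lay within 0.05 of its control in each experiment, and DICER1 and TNRC6B went opposite ways in the 2 experiments. Thus 4 of 10 genes were called higher, where 10.1% of all genes tested were called higher and 3.77% lower. Unadjusted p-values under 0.05 gave 4 higher and 0 lower among the 10 in each limma fit. Over all genes tested, such p-values gave 19.1% higher and 8.98% lower in the paired fit, and 15.3% higher and 6.28% lower in the unpaired fit. In the unpaired fit 1 of the 10 was called higher, beside 3.20% of all genes called higher and 0.714% lower. The median change of the 10 genes was 0.30, beside 0.01 over all genes tested. Since RNA came from whole cultures, a change of RNA per cell and a change in the share of cells that carry it cannot be told apart.

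**Figure D1:**
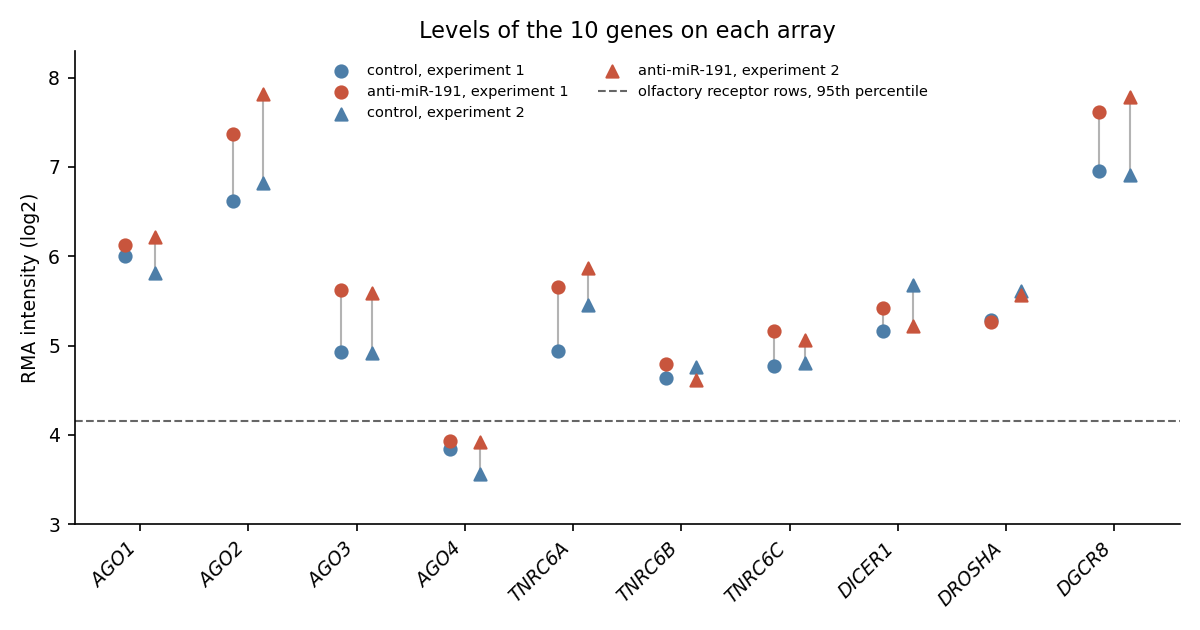
RMA intensity (log2) of each of the 10 genes on the 4 arrays. Circles are experiment 1 and triangles experiment 2, blue controls and red anti-miR-191, with a line joining the arrays of 1 experiment. The dashed line at 4.16 is the background level from olfactory receptor rows, and AGO4 lies below it on all 4 arrays. The red symbols of AGO2, AGO3 and DGCR8 stand clear of the blue ones.

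Background was judged from 360 rows of olfactory receptor genes, a family expressed chiefly in the nose. The 95th percentile of their control means was 4.16. All but 1 of the 10 genes had control means above it. So had 11 of the 20 markers of other cell types, so a mean above this level does not by itself show expression. AGO4 was below the level in both groups, and 13.3% of the olfactory receptor rows read as high as AGO4 in controls. Intensities of different rows depend on their probes and were not ranked against each other.

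AGO2 is the human Argonaute best known for cutting a fully paired target. It read 7.37 and 7.82 after anti-miR-191 and 6.62 and 6.82 in controls, in experiments 1 and 2. Both treated arrays stood above both controls, with a gap of 0.55 between the lowest treated and the highest control array. The changes were 0.74 and 1.00, a mean of 0.87 ± 0.15 (moderated SE of the paired fit, n = 2 per group) or 1.83-fold. Its limma adjusted p was 0.0112 in the paired fit and 0.0679 in the unpaired fit. This mean change was higher than that of 95.5% of the genes tested. The treated arrays differed from each other by 0.45 and the controls by 0.20, so AGO2 was higher in experiment 2 in both groups.

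AGO3, a further Argonaute, read nearly the same in both experiments. It read 5.62 and 5.59 after anti-miR-191 and 4.93 and 4.91 in controls. The arrays of a group were within 0.03 of each other, while the groups were 0.66 apart at their nearest. The change was 0.68 in each experiment, 1.60-fold, with limma adjusted p = 0.0211 in the paired fit and 0.0564 in the unpaired fit.

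AGO1, which acts in repression without being known as an efficient slicer, read 6.13 and 6.22 after anti-miR-191 and 6.00 and 5.81 in controls. The groups did not overlap, but the nearest arrays were 0.13 apart and the controls alone differed by 0.19. The mean change was 0.27 (95% interval -0.09 to 0.62, limma adjusted p = 0.309), an interval that includes 0 and the mean change of TNRC6A but not that of AGO3. AGO4 read 3.93 and 3.93 after anti-miR-191 and 3.85 and 3.56 in controls, with a change of 0.22 (95% interval -0.13 to 0.58). Since it was not above background in either group, its values do not measure a level. Whether the changes of the 4 Argonautes differ from each other was not tested.

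AGO4, AGO1 and AGO3 are consecutive coding genes on chromosome 1 in the RefSeq table (GRCh38.p14), whereas AGO2 is on chromosome 8. Of the 3 neighbours, AGO3 rose, and AGO1 and AGO4 gave values of 0.27 and 0.22.

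TNRC6A, also known as GW182, is the scaffold that binds Argonaute through glycine-tryptophan repeats. It read 5.65 and 5.87 after anti-miR-191 and 4.94 and 5.46 in controls. The groups did not overlap, but the 0.52 between the controls was nearly as large as the mean change of 0.56 ± 0.15 (changes 0.72 and 0.41). Its paired limma adjusted p was 0.0499, just inside the threshold, and 0.195 in the unpaired fit. Of the 8 other ways of processing tried, 1 kept the call, with adjusted p between 0.0432 and 0.195, so TNRC6A is a borderline case. In the unpaired fit its change was 0.30 without the control of experiment 1 and 0.82 without that of experiment 2, with limma adjusted p of 0.498 and 0.118.

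TNRC6C, a paralogue of TNRC6A with the same role, read 5.16 and 5.07 after anti-miR-191 and 4.77 and 4.81 in controls. Its arrays separated by group, with changes of 0.39 and 0.26 and a mean of 0.33 (95% interval -0.01 to 0.66, limma adjusted p = 0.195). TNRC6B, the remaining paralogue, read 4.79 and 4.61 after anti-miR-191 and 4.64 and 4.75 in controls. Its groups overlapped and its changes were 0.16 and -0.14, with a 95% interval of -0.35 to 0.36 around a mean of 0.01.

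DGCR8 binds the base of the primary hairpin and holds DROSHA in place. It read 7.62 and 7.79 after anti-miR-191 and 6.96 and 6.91 in controls. The nearest arrays of the groups were 0.66 apart, while the controls were within 0.05 of each other. The changes of 0.66 and 0.87 gave a mean of 0.77 ± 0.15, or 1.70-fold. It was the member called in both fits, with limma adjusted p = 0.0159 paired and 0.0482 unpaired. The unpaired call ended whichever of the 4 arrays was left out, treated or control, from experiment 1 or 2 (limma adjusted p between 0.106 and 0.292), while the change stayed between 0.68 and 0.85.

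DROSHA, the nuclear ribonuclease that works with DGCR8, read 5.26 and 5.57 after anti-miR-191 and 5.28 and 5.61 in controls. Both groups were higher in experiment 2, by 0.30 and 0.32, and the changes within the experiments were -0.02 and -0.04. The 95% interval of -0.37 to 0.30 does not reach the mean change of DGCR8, although the difference between these partners was not itself tested. DICER1, the cytoplasmic ribonuclease, read 5.42 and 5.21 after anti-miR-191 and 5.17 and 5.68 in controls. Its change was 0.25 in experiment 1 and -0.47 in experiment 2, and its 95% interval of -0.56 to 0.34 was the widest of the 10 genes.

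**Figure D2:**
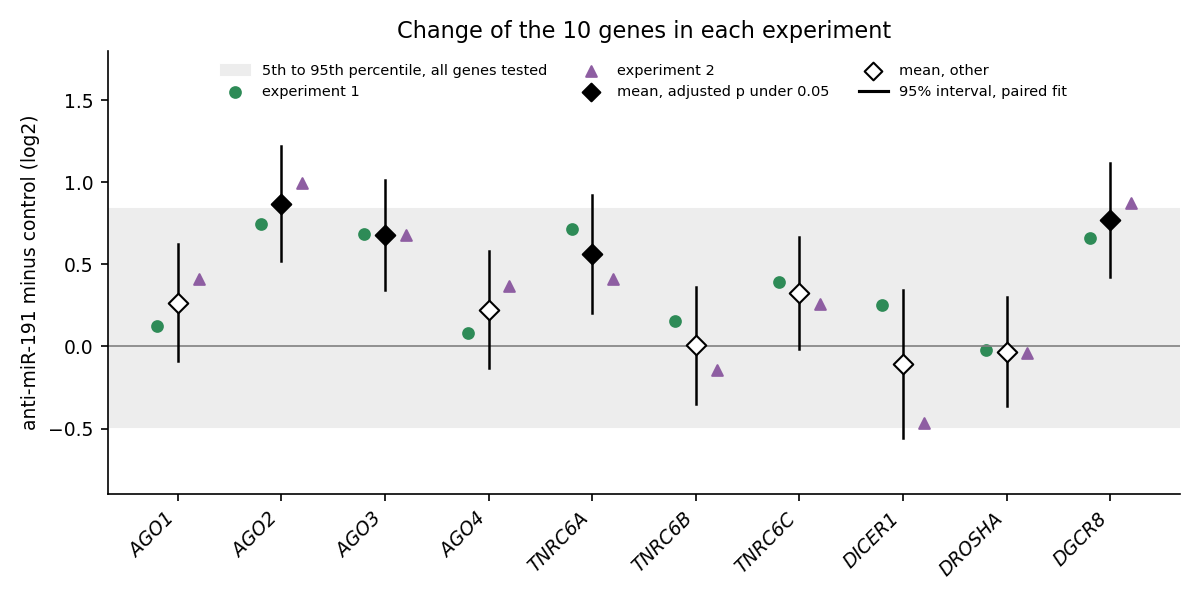
Change (anti-miR-191 minus control, log2) of each gene in experiment 1 (circle) and experiment 2 (triangle), with the mean (diamond, filled where the paired adjusted p was under 0.05) and its 95% interval. The grey band spans the 5th to 95th percentile of all genes tested, from -0.49 to 0.83. The mean of AGO2 lies above the band, and DICER1 has its symbols on opposite sides of 0.

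The promoters of the risen genes were read from RefSeq (GRCh38.p14) to show what sequence lies before genes that moved together. Windows were matched by symbol for 9 of the 10 genes (AGO2 was not matched), with 16 windows in all because some genes have several starts. The 250 bases before the start are printed for AGO3 (chr1:35930855-35931104, plus strand), DGCR8 (chr22:20079991-20080240, plus strand) and TNRC6A (chr16:24729401-24729650, plus strand). Capitals mark GGGCGG, the SP1 motif, on either strand.
AGO3: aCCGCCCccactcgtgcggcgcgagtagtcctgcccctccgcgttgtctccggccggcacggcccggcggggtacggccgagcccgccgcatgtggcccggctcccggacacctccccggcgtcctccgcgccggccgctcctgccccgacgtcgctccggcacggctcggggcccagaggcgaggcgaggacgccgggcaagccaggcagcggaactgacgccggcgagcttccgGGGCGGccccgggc
DGCR8: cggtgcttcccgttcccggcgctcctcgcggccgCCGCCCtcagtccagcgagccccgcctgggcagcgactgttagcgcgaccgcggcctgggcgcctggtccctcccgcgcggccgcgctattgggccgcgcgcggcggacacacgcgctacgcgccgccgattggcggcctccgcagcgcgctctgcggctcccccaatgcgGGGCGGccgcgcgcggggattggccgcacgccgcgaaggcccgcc
TNRC6A: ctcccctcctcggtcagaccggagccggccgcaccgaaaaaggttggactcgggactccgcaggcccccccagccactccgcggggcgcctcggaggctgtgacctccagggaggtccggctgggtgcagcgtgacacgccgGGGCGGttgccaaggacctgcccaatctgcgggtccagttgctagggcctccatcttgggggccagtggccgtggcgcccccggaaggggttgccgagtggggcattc
The AGO3 and DGCR8 windows each held 2 matches and the TNRC6A window 1. GGGCGG was present in 42.6% of all 35116 windows and in 10 of the 16 windows of these genes, spread over 8 of the 9 genes, so risen and other genes alike carried it. The G and C content was 80.0% for AGO3 and for DGCR8 and 71.6% for TNRC6A, beside 71.6% for AGO1, which did not pass, and a median of 58.0% over all windows. The other motifs searched on both strands were TGANTCA (AP-1), TGACGTCA (CRE), CCGGAAGT (ETS), CACGTG (E-box) and the NRF1 motif, held by 6.57%, 1.65%, 3.42%, 6.34% and 5.07% of all windows. The printed windows held none of these. The NRF1 motif was found before AGO1, CACGTG before TNRC6C and TGANTCA before 1 start of DICER1.

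The 5 genes whose levels over the 4 arrays lay nearest to those of AGO2, by Euclidean distance after centring each gene on its mean, were ZNF623, WDCP, NEK7, BZW2 and PELI1, at distances of 0.05 to 0.09. NEK7 is a protein kinase and PELI1 a ubiquitin ligase of innate immune signalling. Like AGO2, each rose more in experiment 2 than in experiment 1, for example 0.69 and 1.02 for ZNF623 and 0.65 and 0.97 for BZW2. That likeness follows from the way they were chosen. The control means of ZNF623 (3.79) and NEK7 (3.27) were below the background level. NEK7 stayed below it after anti-miR-191 (mean 4.08). A likeness over 4 arrays is a description only, and it was sought among all genes tested.

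Genes that work with these 10 proteins were taken from 6 lists of partners written with general knowledge of the pathway. Earlier results of these data were known when the lists were written, so the shares that follow are descriptions only. Of 95 tested, 24 rose (25.3%, beside 10.1% of all genes tested) and 4 fell (4.21%, beside 3.77%), with a median change of 0.35. In limma's unpaired fit 8 were higher and 1 lower, beside 3.20% and 0.714% of all genes. Quantile normalization left 11 higher and 4 lower in the paired fit, where it left 6.34% of all genes higher and 3.70% lower, so the count of risen partners depends on the scaling. A further list, the 4 PIWI genes of the germline Argonaute branch, was too dim to test.

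Among 14 partners of the microprocessor and of nuclear export, 2 rose and 0 fell, a share near the 10.1% of all genes that rose. Unadjusted limma p-values under 0.05 gave 7 and 0 in the paired fit and 3 and 0 in the unpaired fit, where 19.1% and 15.3% of all genes were higher. DDX5, a helicase of the microprocessor, rose from 7.52 to 8.39 (change 0.87 ± 0.16), and the exportin XPO1 rose by 0.62 ± 0.15. The controls of DDX5 were 0.80 apart and those of XPO1 0.61. Neither gene was called in the unpaired fit (limma adjusted p = 0.161 and 0.210). XPO5, which carries precursor hairpins out of the nucleus, had changes of 0.58 and 0.14 and did not pass.

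Among 12 Dicer partners and chaperones that load Argonaute, 2 rose and 0 fell, again near the 10.1% of all genes that rose. Unadjusted limma p-values under 0.05 gave 5 and 0 in each fit, beside 19.1% (paired) and 15.3% (unpaired) of all genes higher. Adjusted p-values of the unpaired limma fit gave 0 higher and 0 lower, beside 3.20% and 0.714% of all genes. The co-chaperone DNAJA2 rose by 1.58 and 0.52, with controls 1.29 apart and limma adjusted p = 0.196 in the unpaired fit. PRKRA, a double-stranded RNA-binding partner of Dicer, rose by 0.62 in each experiment. TARBP2, the other such partner of Dicer, had changes of -0.34 and -0.29 and did not pass (adjusted p = 0.202). Of the 12 genes, 6 had changes of opposite sign in the 2 experiments, among them the chaperones HSP90AA1 (0.65 and -0.75) and HSPA8 (0.79 and -0.26). The co-chaperones STIP1 (0.53 and 0.43) and FKBP4 (0.28 and 0.54) were above 0 in both and did not pass. The list's median was 0.53 in experiment 1 and -0.08 in experiment 2.

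Among 18 cofactors of Argonaute and TNRC6, 7 rose and 0 fell, beside 10.1% of all genes that rose. At unadjusted limma p-values under 0.05 the counts were 11 and 0 paired and 9 and 0 unpaired, beside 19.1% and 15.3% of all genes higher. AJUBA, a LIM protein reported in microRNA complexes, rose from 7.52 to 9.12, a change of 1.61 ± 0.18 with limma adjusted p = 0.00346. Its relative LIMD1 rose by 0.66. The RNA-binding proteins PUM2 and FXR2 rose by 0.88 and 0.84, the helicase UPF1 of nonsense-mediated decay by 0.80, SND1 by 0.76 and HELZ by 0.62. The controls of PUM2 were 0.69 apart and those of HELZ 0.63. Both missed the threshold in the unpaired fit (limma adjusted p = 0.102 and 0.195). AJUBA and FXR2 were called in both fits, and the unpaired fit gave 2 of the 18 higher, beside 3.20% of all genes.

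The deadenylases that TNRC6 recruits, with the proteins bound to them, lay mostly on the higher side. Of 17 tested, 5 rose and 0 fell, beside 10.1% of all genes that rose. By unadjusted limma p-values under 0.05, 13 and 0 passed paired and 12 and 0 unpaired, beside 19.1% and 15.3% of all genes higher. Adjusted p-values of the unpaired limma fit gave 3 higher and 0 lower, beside 3.20% and 0.714% of all genes. On 16 of the 17, both anti-miR-191 arrays stood above both controls, as on 29.4% of all genes tested. BTG1, an antiproliferative protein that binds the CCR4-NOT deadenylase, rose from 6.74 to 9.16, with changes of 1.90 and 2.93 (5.35-fold, limma adjusted p = 0.00217). Its relatives TOB2 and TOB1 rose by 0.83 and 0.54, the CCR4-NOT subunit CNOT9 by 0.76 and the PAN2 nuclease by 0.68. TOB1 was just inside the threshold (limma adjusted p = 0.0487) and kept its call in 1 of the 8 other ways of processing. The exception to this separation was CNOT1, the scaffold of the complex, with changes of 0.52 and -0.56.

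Decapping and decay genes went both ways. Of 19 tested, 4 rose and 3 fell, beside 10.1% and 3.77% of all genes, and the median change was 0.04. Unadjusted limma p-values under 0.05 gave 5 higher and 5 lower paired and 5 and 3 unpaired, beside 19.1% higher and 8.98% lower, and 15.3% and 6.28%, of all genes. In the unpaired fit 1 was called higher and 1 lower, beside 3.20% and 0.714% of all genes. The decapping factors EDC3 and DCP1A rose by 1.05 and 0.62, LSM1 by 0.76 and LSM14A by 0.58. LSM7 fell by 1.33 and LSM2 fell by 0.95, both small subunits of LSm rings that also serve in splicing. DCPS, which clears leftover caps, fell by 0.70. XRN1 had changes of 0.19 and 0.38 from a control level of 3.52, below the background level.

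Among 15 genes of microRNA tailing and turnover, 4 rose and 1 fell, beside 10.1% and 3.77% of all genes. Unadjusted limma p-values under 0.05 gave 5 higher and 1 lower in each fit. Over all genes, such p-values gave 19.1% higher and 8.98% lower paired, and 15.3% and 6.28% unpaired. After adjustment the unpaired fit called 2 higher and 0 lower, beside 3.20% and 0.714% of all genes. ZSWIM8, the substrate receptor of a ubiquitin ligase that destroys Argonaute during target-directed microRNA decay, rose from 6.61 to 7.73 (change 1.12 ± 0.15, limma adjusted p = 0.00549, and 0.0309 in the unpaired fit). With the mean of all its rows in place of the brightest, its change was 0.60 (limma adjusted p = 0.0440). The other rows of ZSWIM8 therefore changed less on average than the brightest. CUL3, a scaffold of that ligase, rose by 0.66, while ELOB, an adaptor in it, fell by 0.67. The controls of CUL3 were 0.65 apart and those of ELOB 0.43. Both missed the threshold in the unpaired fit (limma adjusted p = 0.190 and 0.164). The uridylyl transferase TUT7 rose from 4.16, at the background level, to 5.09, and TUT1 rose by 0.82. TUT4, a paralogue of TUT7, had changes of 0.07 and -0.01. LIN28B, which blocks let-7 maturation, had changes of 0.88 and -0.71 from a control level of 3.94, below background.

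**Figure D3:**
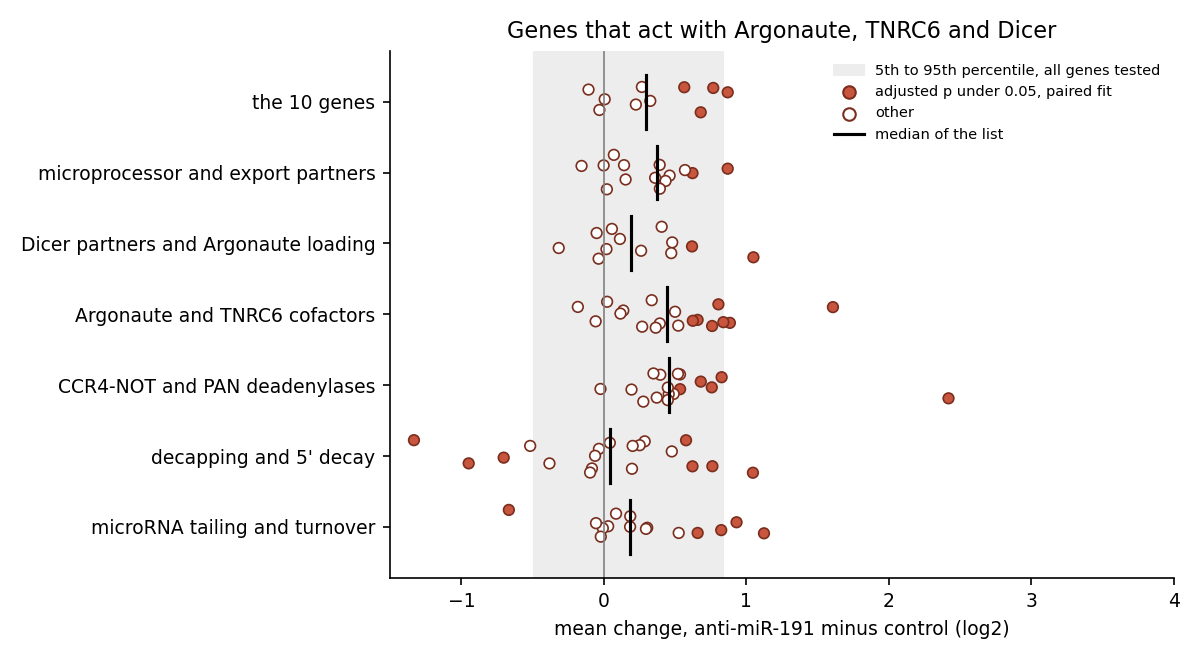
Mean change (anti-miR-191 minus control, log2) of the 10 genes and of each partner list, 1 point per gene, filled where the paired adjusted p was under 0.05. Black bars are list medians, and the grey band spans the 5th to 95th percentile of all genes tested. The deadenylase list has 16 of its 17 points above 0, with BTG1 at 2.42, and the decapping list spreads from -1.33 to 1.05.

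The calls of the 10 genes were followed through 8 other ways of processing. DGCR8 kept its call in all 8, with limma adjusted p between 0.0125 and 0.0482. AGO2 and AGO3 each kept theirs in 7 and lost it in the unpaired fit. AGO1, AGO4, TNRC6B, TNRC6C, DICER1 and DROSHA were called in none of those in which they were tested. After quantile normalization, which removes the difference in spread between the groups' arrays, the changes were 0.74 for AGO2, 0.62 for AGO3 and 0.64 for DGCR8, with limma adjusted p of 0.0328, 0.0427 and 0.0469.

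**Figure D4:**
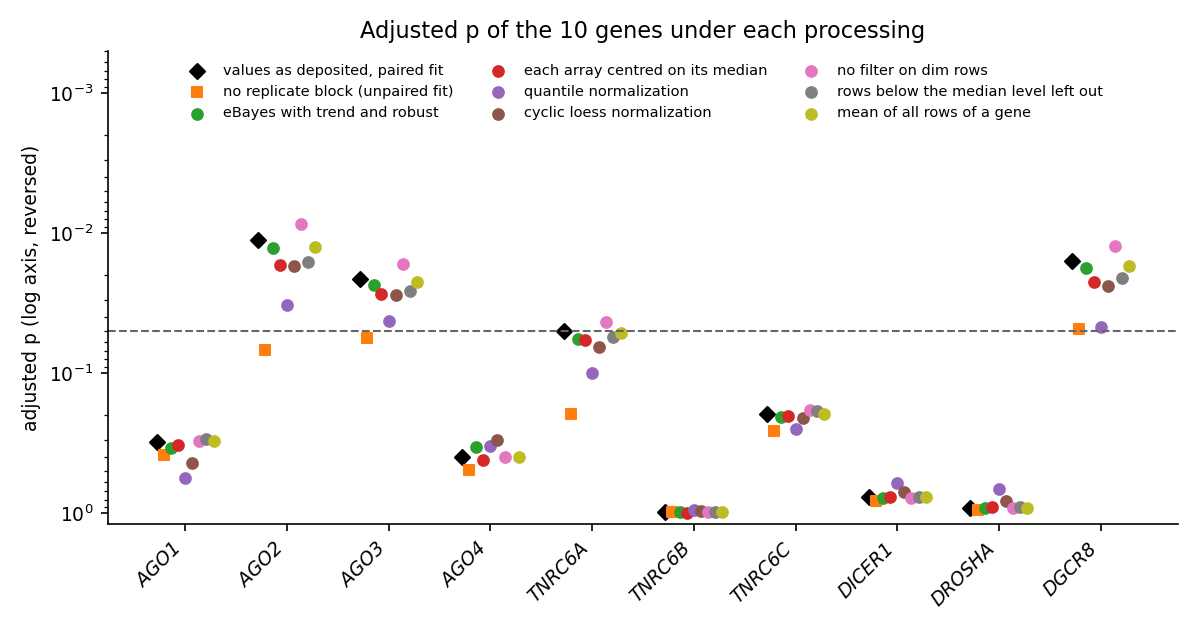
Adjusted p (log axis, reversed, so that smaller values stand higher) of each gene with the values as deposited and under each of the 8 other ways of processing. The dashed line is the threshold of 0.05. DGCR8 has all its symbols above the line, AGO2 and AGO3 all but the orange square of the unpaired fit, and TNRC6A straddles the line.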

How the data were processed

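RNA of 4 HepG2 cultures was hybridised to Affymetrix arrays of 1 colour. The authors deposited RMA values, which are intensities on the log2 scale, and the submitters' processing notes name Affymetrix Expression Console as the program. The sources used here do not give its version, the genome build or the set of arrays normalized together. The range of values and the usual output of RMA gave the log base, and arrays have no counting depth. Of 33297 rows, 19460 had 1 symbol in GEO's platform annotation, 1754 several and 12083 none. Of these, 19429 matched RefSeq's gene table (GRCh38.p14) by Entrez identifier. The 33.3% of rows with the lowest mean (below 3.41) were left out, and the brightest row stood for a gene.

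limma 3.58.1 (R 4.3.3; lmFit, eBayes, two-sided, Benjamini-Hochberg over 14147 genes) was fitted with the experiment as a block (1 residual and 6.60 prior degrees of freedom) and without it (2 and 4.32). The pairing comes from the series text on independent studies and from the numbering in the titles. Same-numbered arrays deviated together from their group means (r = 0.335 across genes, a single value). Named are the 10 genes, up to 8 called genes of each partner list by size of change, MIR191, and the 5 genes nearest to AGO2. XPO5, TARBP2, HSP90AA1, HSPA8, STIP1, FKBP4, CNOT1, XRN1, TUT4, LIN28B and the marker extremes were named after their values were seen. The 10 genes, the lists and the tests were chosen with earlier results of these data known. Promoter motifs were searched in the 250 bases before the start. Figures were drawn with matplotlib 3.10.9.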

Additional observations from a re-analysis of the deposited data

How the results depend on the processing

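Without the replicate block, limma called 1 of the 10 genes in place of 4, 9 of the 95 partner genes in place of 28, and 553 of all genes in place of 1961. After quantile normalization 15 partner genes were called, and 1419 of all genes. The other ways of processing (trend and robust moderation, median centring, cyclic loess, no filter on dim rows, a filter at the median level, the mean of a gene's rows) gave counts within 1.5 times of those reported, with 3 or 4 of the 10 genes called. The median level as a filter left out AGO4. Of the 28 partner genes called, 9 were called in all 8 alternatives (AJUBA, FXR2, BTG1, TOB2, CNOT9, EDC3, LSM2, ZSWIM8 and TUT7), and 0 changed direction in any. Of the 10 genes, TNRC6B changed sign after quantile normalization (-0.018), and it was not called in any setting.

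Leaving out 1 array at a time was possible in the unpaired fit, where the lone array of a group is assumed to vary like the other group. It gave 0 of the 10 genes in each case and from 0 to 339 of all genes. It was 339 when the treated array of experiment 1 was missing and 0 when any other was. The median change of the 10 genes lay between 0.26 (without the control of experiment 2) and 0.33 (without the control of experiment 1). Changes then ranged from -0.085 to 0.097 for TNRC6B, from -0.36 to 0.15 for DICER1 and from -0.19 to 0.13 for DROSHA, and the other 7 kept their sign. The median change of the 10 genes was 0.32 in experiment 1 alone and 0.39 in experiment 2 alone, with no test. The cause of these shifts was not tested.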
